A study of Schmidtea mediterranea with 18 samples.

Results

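The *gfp (RNAi)* controls of the *hippo (RNAi)* time course were followed across 1, 3 and 4 weeks of inhibition in *Schmidtea mediterranea*, a freshwater planarian. They were chosen by their labels and number 9 of the 18 libraries of the series, with 3 libraries at each week (249O, 250O and 251O at 1 week, 257O, 258O and 259O at 3 weeks, 261O, 262O and 263O at 4 weeks). Each library was made from poly(A) RNA of whole animals, pooled from 5 asexual planarians of the clonal line BCN-10. The controls were injected with *gfp* double-stranded RNA, which has no target in planarians. The other 9 libraries came from animals injected with *hippo* double-stranded RNA and sampled at the same 1, 3 or 4 weeks of inhibition. All groups were kept without food. According to the methods of the study, animals had been starved for at least 1 week before the start and were injected in weekly rounds. The sources used here do not give ages.

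Planarians live through long periods without food. A starving planarian shrinks while its tissues keep renewing, because neoblasts, the only dividing cells of the adult, go on replacing cells that die. The question asked here was which transcripts changed in starved controls between 1 and 4 weeks, the groups against which *hippo (RNAi)* animals were read. Time without food moves together with the week, as does the number of injection rounds between 1 and 3 weeks, and their parts cannot be told apart. Whether the animals sampled at 4 weeks had more rounds than those at 3 weeks, and when each library was made, is not stated.

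Values are TPM, a relative abundance of transcripts corrected for transcript length and scaled to the same total in each library. Read depth cannot be recovered from TPM and is unknown here, so no counting error is given. Of 41745 listed transcripts of the dd_Smed_v6 assembly, 28735 averaged 1 TPM or more across all 18 libraries and were compared on the log2(TPM + 1) scale, which understates changes of transcripts with low values. "Called" below means an adjusted p under 0.05 from limma, adjusted over all tested transcripts. The deposited table pairs no transcript with a gene name. Names are used only for 20 transcript codes that the study listed with cell cycle genes, other transcripts are given by identifier, and no cell type markers could be checked. Within the controls, libraries of a week correlated at a Spearman's rho of 0.950 to 0.957 at 1 week, 0.961 to 0.966 at 3 weeks and 0.961 to 0.965 at 4 weeks. In a principal component analysis of the 9 controls, 249O and 251O stood apart from the other 7 libraries and from each other. They lay at -24.7 and -40.0 on the first component (16.8% of the variance), where the others lay between 1.65 and 17.01, and at -44.1 and 29.8 on the second (16.6%).

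Between 1 and 4 weeks of *gfp* RNAi, 291 transcripts were called, or 1.01% of those tested. Of these, 145 were higher at 4 weeks (0.505%) and 146 were lower (0.508%). The changes were small. The median log2 change was 0.19 among the transcripts that rose (range 0.10 to 4.11) and -0.28 among those that fell (range -2.88 to -0.12), and 12 of the former and 25 of the latter reached 1.5-fold. The median over all tested transcripts was -0.01. In these whole-animal libraries, fewer cells of a type and less RNA per cell cannot be told apart. Because each library is a pool, the p-values measure the spread between pools.

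The number of calls rested on how the spread was estimated and on single libraries. It was 78 when the 9 control libraries were fitted alone and 7 when only the 6 libraries compared were fitted. It was 71 without 263O, 102 without 261O, 110 without 251O and 171 without 262O. Leaving out both 249O and 251O, a choice made after seeing the data, leaves only 250O at 1 week. No count of calls is given for that fit.

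Abundant transcripts made up much of the set. The transcripts that rose had a median abundance of 142 TPM and those that fell 37.8 TPM, against 5.68 TPM over all tested transcripts. Between 1 and 10 TPM, 12 transcripts rose and 21 fell out of 18058 (0.183% called). Between 10 and 100 TPM the numbers were 47 and 86 of 9363 (1.42%), and between 100 and 1000 TPM 72 and 36 of 1168 (9.25%). At 1000 TPM and above, 14 rose and 3 fell of 146 (11.6%). The standard error of the log2 change fell across the same classes, from a median of 0.165 to 0.057, 0.042 and 0.036, so smaller changes could be called among abundant transcripts. In the plot of change against abundance, the called transcripts above 100 TPM mostly lie in a narrow band on both sides of 0. A transcript at a mean of 1457 TPM was an exception, with a log2 change of 1.30. Between 10 and 100 TPM the falls reached a log2 change of -1.60. Those called below 10 TPM reach log2 changes of 4.11 and -2.88. The latter is dd_Smed_v6_1665_0_6, whose code changed by 0.04 when its transcripts were summed, as described below. For the former, no sum over its code is given here.

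**Figure D1:**
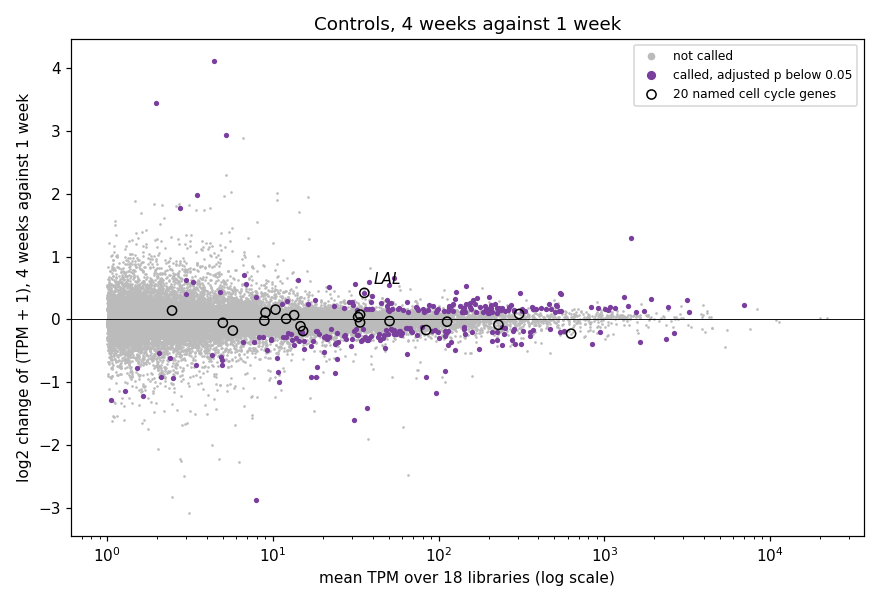
Change of each tested transcript in controls (vertical axis, log2 change of TPM + 1 from 1 to 4 weeks) against its mean TPM over the 18 libraries (horizontal axis, log scale). Called transcripts are purple and the 20 named cell cycle genes are circled in black. Above 100 TPM the called transcripts mostly lie close to 0, while below 10 TPM most transcripts with large changes were not called.

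The summed level of the transcripts that rose shows how the change was spread over the weeks. Together they took 4.77% to 4.89% of all TPM in the control libraries at 1 week, 5.39% to 5.44% at 3 weeks and 5.61% to 5.75% at 4 weeks. The transcripts that fell went from 2.06% to 2.12% of all TPM at 1 week to 1.80% to 1.83% at 3 weeks and 1.70% to 1.76% at 4 weeks. Weeks did not overlap in either sum, but the transcripts had been chosen on the libraries of 1 and 4 weeks, so these sums are a description and not a test. The 14 rising transcripts at 1000 TPM or more alone held 2.72% to 2.82% of all TPM at 1 week, 3.12% to 3.14% at 3 weeks and 3.27% to 3.34% at 4 weeks.

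**Figure D2:**
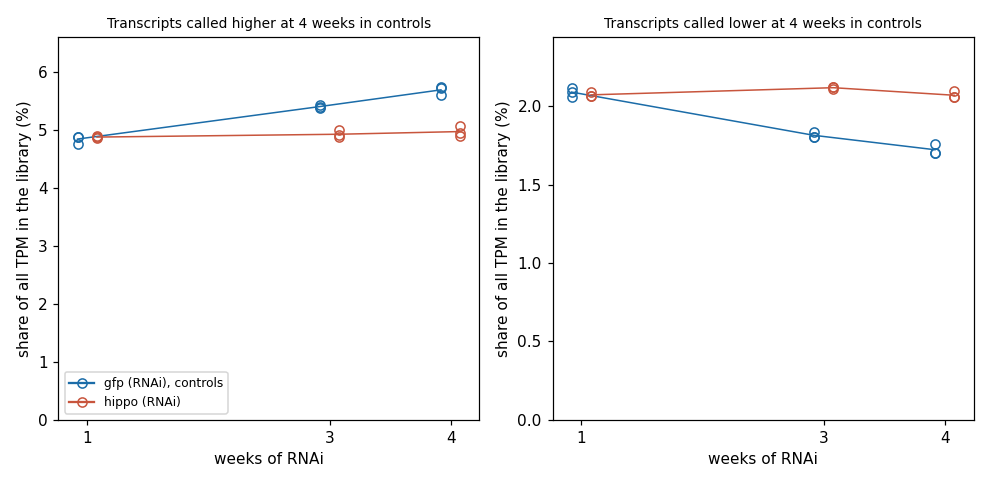
Share of all TPM in each library (vertical axis, %) taken by the 145 transcripts called higher (left) and the 146 called lower (right) at 4 weeks in controls, against weeks of RNAi (horizontal axis). Circles are libraries, lines join the group means, blue is *gfp (RNAi)* and red *hippo (RNAi)*. The left sum climbs from 4.77% to 4.89% at 1 week to 5.61% to 5.75% at 4 weeks in controls and stays between 4.86% and 5.07% in *hippo (RNAi)* libraries.

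Single transcripts were in full order by week in a minority of cases. Of the 145 that rose, 59 had all 9 control libraries in order, with every 3-week library above every 1-week library and every 4-week library above every 3-week library. Of the 146 that fell, 34 were ordered the same way downwards. Over all tested transcripts, 119 were ordered upwards and 96 downwards. Since the calls were made on 1 and 4 weeks, only the place of the 3-week libraries was free of that choice.

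The 3-week controls divide the interval into a step of 2 weeks and a step of 1 week. At 3 weeks against 1 week, 41 transcripts were called (0.143%), 17 higher and 24 lower, and 3048 transcripts (10.6%) had an unadjusted p under 0.05. At 4 weeks against 3 weeks 2 transcripts were called (0.00696%) and 1492 (5.19%) had an unadjusted p under 0.05. These comparisons share libraries with each other and with the comparison of 4 weeks against 1 week. A test of whether the weekly rate of change differed between the steps called no transcript (0%), with 1442 (5.02%) at an unadjusted p under 0.05 and a smallest adjusted p of 0.49 from limma. With the 9 controls fitted alone, that test called 4. The count at 3 weeks was 1 with the 9 controls alone, 2 without 257O or without 259O, 5 without 251O and 7 without 258O.

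Both calls of the last step belonged to a single assembly code, and they are named here after their values were seen. dd_Smed_v6_1665_0_5 was listed at 0 in all 6 control libraries of 1 and 3 weeks and at 12.5, 7.78 and 9.92 TPM at 4 weeks. dd_Smed_v6_1665_0_6 was at 12.2, 9.07 and 11.2 TPM at 1 week and at 11.1, 10.2 and 9.55 TPM at 3 weeks, and at 4 weeks it was listed at 0 in 261O and 263O and at 3.02 TPM in 262O. The first transcript of the pair was thus found in the same libraries in which the other was at 0 or, in 262O, lowered to 3.02 TPM. Each of the pair had an adjusted p of 0.0495 from limma for 4 weeks against 3 weeks. The split was not confined to this pair. Other transcripts of the code were called in controls from 1 to 4 weeks, with log2 changes of -0.91 and 0.56. Summed over its transcripts, the code was flat, at 74.8, 77.0 and 76.6 TPM at 1 week, 76.8, 73.9 and 76.1 TPM at 3 weeks and 79.9, 75.7 and 79.3 TPM at 4 weeks. The summed code changed by 0.05 on the log2 scale from 3 to 4 weeks (adjusted p = 0.986 from limma). In *hippo (RNAi)* libraries dd_Smed_v6_1665_0_5 was listed at 0 except in 254O (5.08 TPM), and dd_Smed_v6_1665_0_6 stayed between 5.44 and 9.40 TPM. Transcripts of a code share sequence and kallisto divides reads between them, so how such a pair splits is uncertain.

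The 291 transcripts came from 282 codes. For 229 of them no other transcript of the code was detected in any library, so the sum by code held the same values. All 229 were called again as sums, which was largely set in advance and is no check of the calls. The other 62 belonged to 53 codes with several detected transcripts, and 27 of these codes were called as a sum with the same sign.

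Of the transcripts that rose with all 9 control libraries in order, those with the largest changes were dd_Smed_v6_3101_0_1 and dd_Smed_v6_3244_0_1. dd_Smed_v6_3101_0_1 was at 38.3, 49.5 and 46.2 TPM at 1 week, 60.2, 63.5 and 54.0 TPM at 3 weeks and 68.6, 70.7 and 72.8 TPM at 4 weeks. Its log2 change from 1 to 4 weeks was 0.66 (SE 0.10, adjusted p = 0.0055 from limma), and the sum of its code changed by 0.64 (adjusted p = 0.000615 from limma). In *hippo (RNAi)* libraries it rose as well, by 0.48 (adjusted p = 0.00356 from limma).

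dd_Smed_v6_3244_0_1 was at 4.88, 6.39 and 5.91 TPM at 1 week, 6.64, 7.06 and 7.75 TPM at 3 weeks and 10.03, 8.09 and 8.74 TPM at 4 weeks, a log2 change of 0.57 (SE 0.11, adjusted p = 0.0218 from limma). The sum over its code, between 76.2 and 87.5 TPM in the 9 controls, was not called, with a log2 change of 0.06 (adjusted p = 0.535 from limma). The transcript-level call was also lost when any 1 of 249O, 251O, 261O or 263O was left out. Over all alternatives its adjusted p ran from 0.0164 to 0.535.

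Of the ordered transcripts that fell, those with the largest changes were dd_Smed_v6_615_0_1 and dd_Smed_v6_2320_0_1, each the only transcript of its code. dd_Smed_v6_615_0_1 was at 39.5, 35.5 and 49.3 TPM at 1 week, 30.3, 30.9 and 28.1 TPM at 3 weeks and 20.7, 25.001 and 22.5 TPM at 4 weeks. The log2 change was -0.83 (SE 0.12, adjusted p = 0.0054 from limma). The *hippo (RNAi)* libraries moved the other way, from 66.0, 67.02 and 57.9 TPM at 1 week to 151, 167 and 178 TPM at 3 weeks and 376, 283 and 333 TPM at 4 weeks, a log2 change of 2.35.

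dd_Smed_v6_2320_0_1 was at 122, 139 and 124 TPM at 1 week, 118, 119 and 110 TPM at 3 weeks and 96.9, 88.1 and 89.6 TPM at 4 weeks. The log2 change was -0.48 (SE 0.09, adjusted p = 0.0200 from limma). The call was lost when 250O, 251O, 262O or 263O was left out. The adjusted p from limma lay between 0.00709 and 0.119 over the alternatives that kept more than 1 library in each group. In *hippo (RNAi)* libraries it lay between 120 and 157 TPM at all weeks and was not called (log2 change 0.14, adjusted p = 0.389 from limma). All of these transcripts except dd_Smed_v6_1665_0_5 lost their call when only the 6 libraries compared were fitted. With 249O and 251O left out, only 250O remains at 1 week, and only the log2 changes are given. They were 0.50 for dd_Smed_v6_3101_0_1, 0.43 for dd_Smed_v6_3244_0_1, -0.62 for dd_Smed_v6_615_0_1 and -0.60 for dd_Smed_v6_2320_0_1. For dd_Smed_v6_1665_0_5 and dd_Smed_v6_1665_0_6 they were 3.45 and -2.66.

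**Figure D3:**
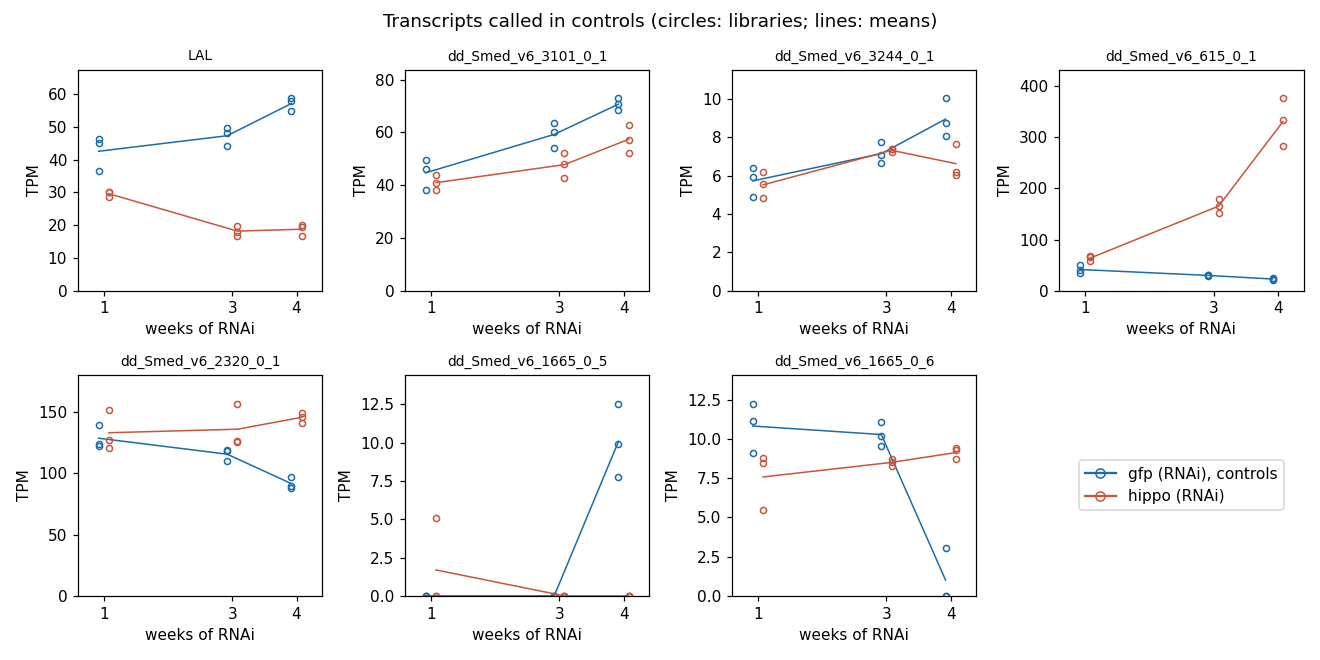
TPM (vertical axes, starting at 0) of *LAL* and of the 6 transcripts given by identifier against weeks of RNAi (horizontal axes). Circles are libraries, lines join group means, blue is *gfp (RNAi)* and red *hippo (RNAi)*. dd_Smed_v6_615_0_1 falls to between 20.7 and 25.001 TPM in controls and reaches 283 to 376 TPM in *hippo (RNAi)* libraries at 4 weeks.

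The 20 genes that the study listed for the cell cycle were chosen by the study on the *hippo (RNAi)* libraries, and here they serve to ask how steady they were in controls. The named roles below are known from mammals, yeast or flies. Through its most abundant transcript, 1 of the 20 was called between 1 and 4 weeks (background 1.01%). The median log2 change of the 20 was -0.02, with 9 above 0 and a range of -0.23 to 0.42. An unadjusted p under 0.05 from limma was found for 7 of the 20, against 3668 (12.8%) of all tested transcripts. The background shares given here are not matched for abundance. Of the 28735 tested transcripts, 18058 lay between 1 and 10 TPM, where calls were rarest (0.183%). For the 19 that were not called, the 95% intervals of the log2 change lay within -0.39 and 0.32. None of 5 further tested transcripts of the same codes was called. At 3 weeks against 1 week none of the 20 was called by limma, and 5 had an unadjusted p under 0.05 (background 10.6%). At 4 weeks against 3 weeks none was called, and 2 had an unadjusted p under 0.05 (background 5.19%). None differed in weekly rate, with 1 at an unadjusted p under 0.05 (background 5.02%).

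Growth and the G1 phase are the reported roles of 6 of the genes. *Lysosomal acid lipase* (*LAL*, dd_Smed_v6_4693_0_1) releases fatty acids and cholesterol from lipids delivered to the lysosome. It was at 46.3, 45.0 and 36.4 TPM at 1 week, 44.2, 48.3 and 49.5 TPM at 3 weeks and 54.8, 58.0 and 58.7 TPM at 4 weeks. The means were 42.6 ± 5.36, 47.3 ± 2.80 and 57.2 ± 2.05 TPM (SD, n = 3 libraries each). The 4-week libraries lay above all others, while 1 and 3 weeks overlapped. The log2 change from 1 to 4 weeks was 0.42 (SE 0.09, 95% interval 0.24 to 0.61, adjusted p = 0.0326 from limma). For 3 weeks against 1 week it was 0.16 (adjusted p = 0.572 from limma) and for 4 weeks against 3 weeks 0.27 (adjusted p = 0.889 from limma). The direction held in all alternatives, but the call did not: without 251O, 261O, 262O or 263O the adjusted p was 0.112, 0.0749, 0.0926 and 0.137 from limma, and with the 9 controls alone it was 0.0914. Without both 249O and 251O it was 0.413, the highest of all alternatives, and 0.0124 was the lowest.

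The other genes of this group were not called. *Caprin 1* (*CAPR1*), an RNA-binding protein needed for normal cell proliferation, was at 298, 306 and 311 TPM at 1 week, 317, 322 and 311 TPM at 3 weeks and 327, 316 and 329 TPM at 4 weeks. Its 4-week libraries lay above those of 1 week, by a log2 change of 0.09 (SE 0.02, adjusted p = 0.106 from limma). *Progranulin* (*PGRN*), a secreted growth factor, was the most abundant of the 20. It was at 433, 454 and 516 TPM at 1 week, 364, 389 and 376 TPM at 3 weeks and 395, 417 and 384 TPM at 4 weeks, so that every later library lay below every 1-week library. The log2 change from 1 to 4 weeks was -0.23 (SE 0.08, adjusted p = 0.212 from limma). *CDC42*, a small GTPase of cell polarity, changed by -0.09 (adjusted p = 0.302 from limma), with 198 to 211 TPM at 4 weeks against 211 to 226 TPM at 1 week. *IGF*, an insulin-like growth factor, lay between 21.9 and 26.2 TPM in all 9 controls and changed by -0.05. *mAChR*, a muscarinic acetylcholine receptor, lay between 2.27 and 3.01 TPM and changed by 0.14.

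None of the 7 genes of the spindle, microtubules and centrosome was called. *Dynamin 1-like* (*DYN1*), a GTPase that divides membranes, was at 56.9, 58.1 and 58.6 TPM at 1 week, 51.1, 50.7 and 54.9 TPM at 3 weeks and 51.2, 49.3 and 53.8 TPM at 4 weeks. The 1-week libraries lay above the rest, and the log2 change to 4 weeks was -0.17 (SE 0.08, adjusted p = 0.367 from limma). *Aurora kinase 1* (*AURK1*), a mitotic kinase, was at 6.46 to 7.06 TPM at 1 week and 5.42 to 6.35 TPM at 4 weeks, a log2 change of -0.18 (adjusted p = 0.354 from limma). *Alpha tubulin 3A* (*TubA3A*), a subunit of microtubules, changed by 0.16, with 9.94 to 10.9 TPM at 1 week and 10.9 to 11.97 TPM at 4 weeks. *KIF2A*, a kinesin that takes microtubules apart, changed by 0.04 and *CROCC* (*rootletin*), a fibre protein of the centrosome and ciliary rootlet, by -0.04. *RASSF1*, a scaffold protein that binds microtubules and Hippo kinases, changed by 0.08, and *polo-like kinase 1* (*PLK1*), which drives mitotic entry and spindle assembly, by -0.05.

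The remaining 7 genes were not called either. For cytokinesis, *centriolin* (*CNTRL*), a protein of the midbody and centrosome, changed by -0.02 and *septin 4* (*Sept4*), a filament-forming GTPase, by -0.03. For entry, checkpoint and exit of mitosis, *protein tyrosine phosphatase* (*PTPase*) changed by -0.19 (adjusted p = 0.444 from limma), *BUB1*, a kinase of the spindle checkpoint, by 0.07 and *ANAPC1*, a subunit of the ligase that starts anaphase, by 0.11. For polarity and spindle orientation, *discs large* (*DLG*), a scaffold protein, changed by -0.11 and *afadin* (*AFDN*), a junction protein, by 0.01. The libraries of 1 and 4 weeks did not overlap for 5 of the 20 genes, with *LAL* and *CAPR1* higher and *PGRN*, *DYN1* and *AURK1* lower at 4 weeks. Over all tested transcripts such a separation was found in 17.5%.

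**Figure D4:**
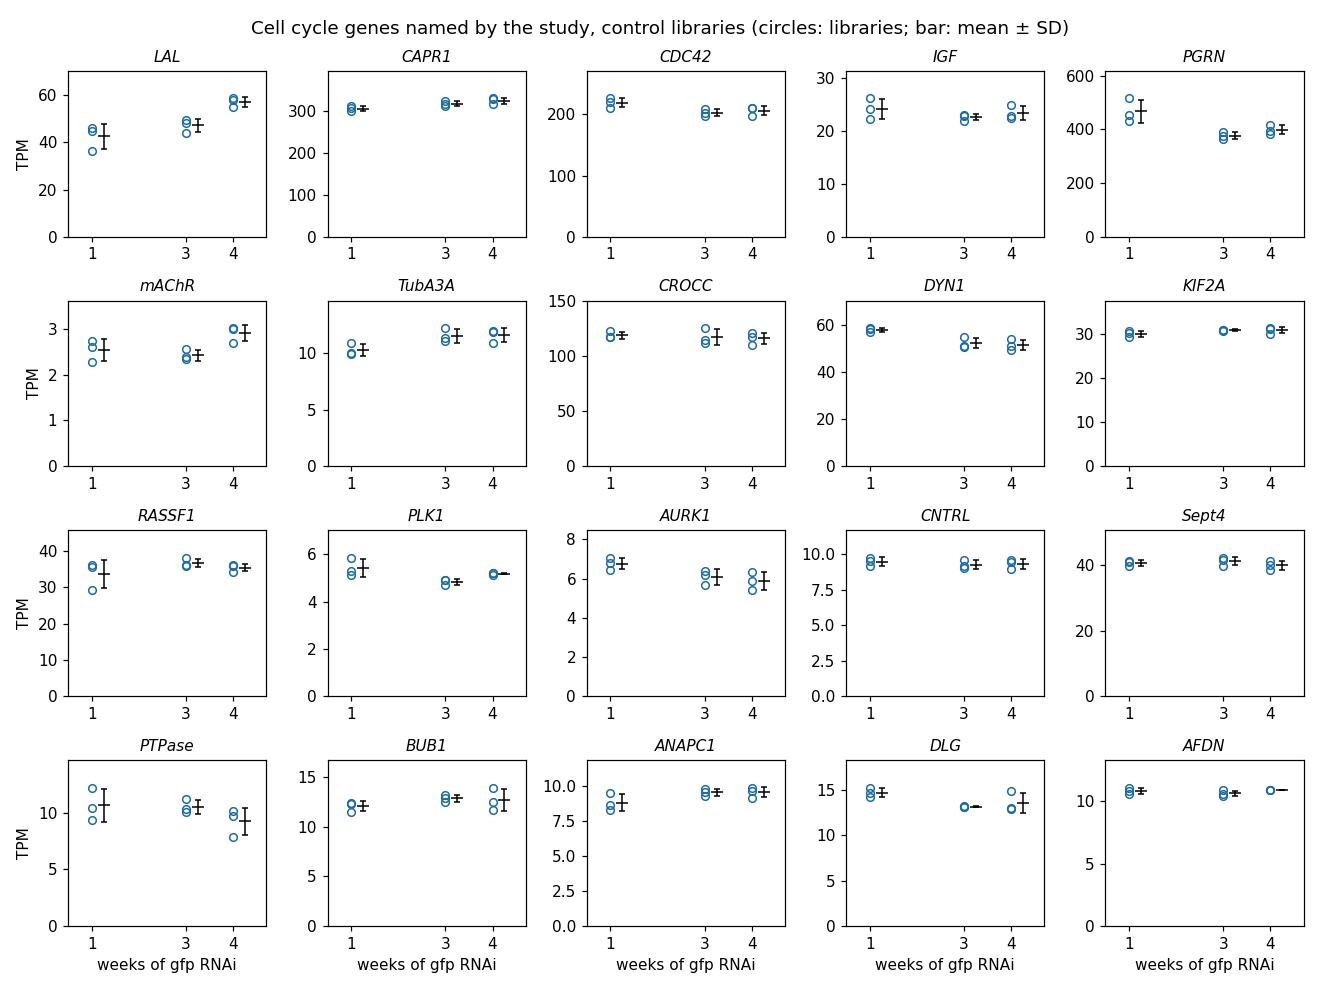
TPM (vertical axes, starting at 0) of the 20 named cell cycle genes in the 9 control libraries against weeks of *gfp* RNAi (horizontal axes). Circles are libraries and the black bars beside them are means ± SD of 3 libraries. *LAL* is the 1 gene called between 1 and 4 weeks, with 36.4 to 46.3 TPM at 1 week and 54.8 to 58.7 TPM at 4 weeks.

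*LAL* stands in contrast to the *hippo (RNAi)* animals, where it was at 28.7, 30.0 and 30.1 TPM at 1 week, 16.8, 19.8 and 18.03 TPM at 3 weeks and 16.6, 19.6 and 20.2 TPM at 4 weeks. It rose in controls and fell by 0.64 on the log2 scale in *hippo (RNAi)* libraries, and the difference of the 2 changes was -1.06 (adjusted p = 7.99e-05 from limma). Over the 20 genes, 9 differed between *hippo (RNAi)* and controls in their change from 1 to 4 weeks (background 9.72%), 8 of them with the higher change under *hippo (RNAi)*. Since the list was chosen on these libraries, that count is not independent evidence.

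The *hippo (RNAi)* libraries of 1 and 4 weeks share no library with the controls, so the 291 transcripts could be followed there. Both comparisons use the same standard error for each transcript, estimated over all 18 libraries, so their calls are not independent. In *hippo (RNAi)* animals 3686 transcripts were called between 1 and 4 weeks (12.8%), 2122 higher (7.38%) and 1564 lower (5.44%). Of the 145 transcripts that rose in controls, 27 (18.6%) rose and 24 (16.6%) fell in the *hippo (RNAi)* libraries, and 94 were not called. Their median log2 change there was -0.02, and 45.5% lay above 0, against 47.1% of all tested transcripts. Of the 146 that fell in controls, 60 (41.1%) were called higher and 18 (12.3%) lower, and 68 were not called. Their median was 0.13, and 71.9% lay above 0. Both sets are richer in abundant transcripts than the table as a whole, and these had the smaller standard errors. A low standard error that favoured a call in controls also favoured one here. The part of abundance and of the shared standard error in these counts was not tested.

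**Figure D5:**
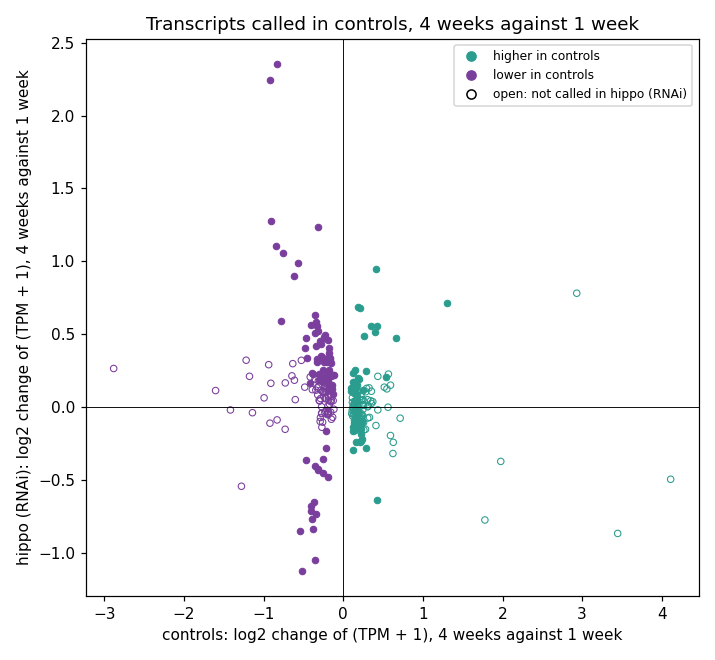
Log2 change of TPM + 1 from 1 to 4 weeks in *hippo (RNAi)* libraries (vertical axis) against that in controls (horizontal axis) for the 291 transcripts called in controls. Green transcripts rose and purple transcripts fell in controls, filled points were also called in *hippo (RNAi)* libraries and open points were not. Of the purple points, 105 of 146 lie above the horizontal line at 0.

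Read from the other side, the 2122 transcripts that rose in *hippo (RNAi)* animals had a median log2 change of -0.05 in controls, where 28.1% of them lay above 0. Of the 2122, 60 (2.83%) were called lower and 27 (1.27%) higher in controls. The 1564 that fell in *hippo (RNAi)* animals had a median of -0.01 in controls, with 46.4% above 0. Of the 1564, 18 were called lower and 24 higher in controls. Over all tested transcripts, 47.1% lay above 0 in controls, 0.508% were called lower and 0.505% higher. Both sets were called more often in controls than all tested transcripts, in both directions. The standard error that the comparisons share favours such an excess, and its part was not tested. Across all 28735 tested transcripts, the changes in controls and in *hippo (RNAi)* libraries had a Pearson's r of -0.03 and a Spearman's rho of -0.04, a description across transcripts, which are not independent replicates.

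Summed over each set, the levels in *hippo (RNAi)* libraries stayed in a narrow range. The transcripts that rose in controls took 4.86% to 4.91% of all TPM in *hippo (RNAi)* libraries at 1 week, 4.88% to 5.001% at 3 weeks and 4.90% to 5.07% at 4 weeks. Those that fell in controls took 2.06% to 2.09%, 2.11% to 2.12% and 2.06% to 2.10%, so their sum was level from 1 to 4 weeks although most of them singly lay above 0. The transcripts had been chosen for their levels in controls, so a difference in level from the controls at 4 weeks is in part set by that choice.

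The make-up of the control libraries as a whole was compared over the weeks. The 50 most abundant transcripts of each library held 21.6% to 22.6% of all TPM at 1 week, 22.4% to 22.9% at 3 weeks and 22.2% to 22.4% at 4 weeks. The slope was 0.0847 percentage points per week (two-sided exact permutation p = 0.461, adjusted p = 0.589 over 6 such measures). Between 28180 and 28840 transcripts were at 1 TPM or more at 1 week, 28313 to 28537 at 3 weeks and 28248 to 28602 at 4 weeks (exact permutation p = 0.914). The slope of neither of these measures was larger than the spread between libraries. With other limits the unadjusted p fell below 0.05. The share of the 200 most abundant transcripts had a slope of 0.219 percentage points per week (exact permutation p = 0.0351). The number of transcripts at 10 TPM or more had a slope of -37.7 per week (exact permutation p = 0.0232). Both had an adjusted p of 0.105 over the 6 measures. At 1 TPM or more the slope was 7.17 per week, within the spread between libraries. The smallest p that this test can give is 0.00119.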

How the data were processed

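RNA of 9 *gfp (RNAi)* and 9 *hippo (RNAi)* pools was sequenced as stranded paired-end libraries. Reads were quantified by the authors with kallisto 0.43.0 against dd_Smed_v6, and TPM were deposited. The sources used here do not give trimming, read numbers or filters. Because TPM sum to the same total, a rise of abundant transcripts lowers the others.

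From the deposited TPM, log2(TPM + 1) was compared for transcripts averaging 1 TPM or more, using limma 3.58.1 (R 4.3.3) with a variance trend, 1 mean for each of 6 groups over all 18 libraries, and Benjamini-Hochberg adjustment at 0.05. Library measures were tested by exact permutation. Scripts were tested on simulated data, and figures were drawn with matplotlib 3.10.9.

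Transcripts were named by this rule: the 20 codes the study listed (most abundant transcript of each), and the 2 largest rises and 2 largest falls among called transcripts whose 9 control libraries were fully ordered by week. Members and lists were chosen with earlier results of these data known. Alternatives were other pseudocounts, filters, scalings, thresholds, library subsets, array weights, sums by code, and leaving out libraries. *hippo* could not be matched to a transcript, so its level was not used to check the labels.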

Additional observations from a re-analysis of the deposited data

Results flagged for a closer look

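The change from 1 to 4 weeks differed between *hippo (RNAi)* and control animals, by limma's interaction test, for 13 of the transcripts named above. These were 9 of the 20 genes and 4 of the transcripts given by identifier. Over all tested transcripts, 2794 (9.72%) were called by this test. Differences are log2 changes in *hippo (RNAi)* minus those in controls. Under *hippo (RNAi)* the change was lower for *LAL* (-1.06, adjusted p = 7.99e-05 from limma). It was higher for *IGF* (0.90), *PGRN* (0.87), *DYN1* (0.83), *PTPase* (0.64), *Sept4* (0.50), *CDC42* (0.28), *AFDN* (0.27) and *KIF2A* (0.19), with adjusted p between 1.08e-05 and 0.0343 from limma. Of these genes only *LAL* was called in controls. The study had chosen these genes on the *hippo (RNAi)* libraries, so their differences are not independent evidence. dd_Smed_v6_615_0_1 (3.18, adjusted p = 2.79e-07 from limma) and dd_Smed_v6_2320_0_1 (0.62, adjusted p = 0.0056 from limma) also differed, as did the pair dd_Smed_v6_1665_0_5 (-4.31, adjusted p = 0.000757 from limma) and dd_Smed_v6_1665_0_6 (3.15, adjusted p = 0.00131 from limma), whose summed code was not called (-0.0503, adjusted p = 0.564 from limma). These 4 transcripts had been chosen for their change in the same controls, which enters this difference.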

How the results depend on the processing

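No paired analysis was possible because the labels give no replicate numbers that pair libraries. The count of 291 for controls at 4 weeks against 1 week was 556 with a filter of 10 TPM, 77 at an adjusted p below 0.01, 37 with at least 1.5-fold, 78 with the 9 controls alone, 7 with the 6 libraries compared and 8 without 249O and 251O. It ran from 71 to 288 when single libraries were left out. The count of 41 at 3 weeks was 162 with the filter of 10 TPM, 68 with codes summed, 1 at 0.01 and 6 with 1.5-fold. It was 1 with the 9 controls and 2 to 58 without single libraries. At 4 weeks against 3 weeks it was 4 with the 9 controls and 0 to 2 without single libraries. It was 0 with a pseudocount of 0.1 TPM, no filter, the filter of 10 TPM, codes summed or 0.01. The weekly rate had 4 calls with the 9 controls and 0 to 2 without single libraries. In *hippo (RNAi)* libraries the count was 2124 at 0.01, 536 with 1.5-fold and 1192 without 266O to 269O, and that of the difference between *hippo (RNAi)* and controls 1431, 637 and 1219, and 1470 without 249O and 251O. The 1 call among the 20 genes became 0 at 0.01, with 1.5-fold, with the 9 controls and with the 6 libraries. It ranged from 0 to 1 without single libraries. The 9 calls of these genes for the difference became 5 with 1.5-fold.

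With codes summed, the value of dd_Smed_v6_1665_0_6 turned to 0.0393 in controls and -0.0503 for the difference, and dd_Smed_v6_3244_0_1 turned to -0.14 in *hippo (RNAi)* libraries. The share of the 200 most abundant transcripts had a slope of 0.219 percentage points per week (exact permutation p = 0.0351). The number at 10 TPM or more had a slope of -37.7 per week (exact permutation p = 0.0232). Each had an adjusted p of 0.105 over 6 measures. Where no reason lies in the setting itself, the cause was not tested. Depth is unknown, so what low values could show is unknown too.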
